A study of Arabidopsis thaliana with 24 samples.

Results

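The genes described are PDIL5-1 (AT1G07960), a protein disulfide isomerase-like gene, and AT4G29520 of Arabidopsis thaliana. They are 2 of 13355 genes with a probe set annotated to 1 gene alone. Each was measured by 1 probe set, 257495_at for PDIL5-1 and 253687_at for AT4G29520. They were chosen from measured values, because their responses to salicylic acid (SA) differed between wild type and the tbf1 mutant in opposite directions. Every comparison of these 2 genes among the spray arrays is therefore given as a description with no test. The infiltration arrays, which had no part in the choice, carry the tested differences of these 2 genes. The spread used in those tests was estimated over all 8 groups, spray arrays included. Other genes were tested on both sets of arrays. The working label calls both genes genes of the endoplasmic reticulum (ER). The annotation used here gives AT4G29520 no name and no function, so the label could not be checked for it, and it is called by its locus name.

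Mature leaves of Columbia-0 wild type and of a tbf1 mutant were profiled on 24 single-channel Affymetrix arrays. The labels do not name the tbf1 allele. Plants were grown on soil for 3 weeks at 22 °C with 16 h of light and 8 h of dark. In each genotype, 1 group was sprayed with 1 mM SA and 1 with water, both for 6 h, and 1 group was infiltrated with 10 µM elf18 and 1 with water, both for 2 h. Each of the 8 groups had 3 arrays, labelled as biological replicates. Nothing further says how separate their plants were, so each p-value below speaks only of array-to-array spread, which may be in part technical. The number of arrays limits the precision of every value.

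The values are log2 expression values that had been centred for each probe set on its median over the 24 arrays. A value of 0 is therefore that gene's own median over the 24 arrays. Neither the abundance of a gene nor a comparison of levels between genes can be read from it. As leaf tissue contains several cell types, fewer cells of a type and less RNA per cell cannot be told apart. No probe set was annotated to TBF1 alone, and those with several genes or none listed were not searched. The mutant label was therefore not checked on its transcript. Of the marker genes listed for leaf cell types, RCA (of 4 for mesophyll) and FMA (of 5 for guard cells) had a probe set of their own. None of those for phloem companion cells and epidermis had. Centred values cannot show whether a marker is present.

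Protein disulfide isomerases are enzymes of the ER that form, break and rearrange disulfide bonds in proteins on their way to the cell surface, using thioredoxin-like domains. The family is known as part of the folding machinery that plants raise when the ER is loaded with client proteins. SA is a defence hormone whose response includes the secretion of antimicrobial proteins and a larger supply of ER chaperones. The elf18 peptide comes from a bacterial translation elongation factor and is perceived by the receptor kinase EFR. TBF1 belongs to the heat shock factors, a class of transcription factors, and has been studied in both responses.

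PDIL5-1 stood at -0.28, -0.04 and -0.04 in the 3 wild type arrays after water spray and at -0.31, -0.19 and -0.24 after SA. These groups overlapped. In tbf1 its values were -1.75, -1.79 and -0.59 after water spray and 0.67, 0.72 and 0.70 after SA. The tbf1 water spray arrays were the lowest of all 24, replicate 3 lay well above its groupmates, and the SA arrays of the mutant lay close together, above every spray array of wild type.

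After water infiltration PDIL5-1 was at -0.31, -0.41 and -0.10 in wild type and at 0.16, 0.04 and 0.07 in tbf1. After elf18 it was at 0.26, 0.86 and 0.34 in wild type and at 0.92, 0.94 and 1.00 in tbf1. The elf18 arrays lay above the water arrays in each genotype, and the tbf1 arrays above the wild type arrays under each treatment, with no overlap. Replicate 2 of wild type elf18 came closest to the mutant.

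**Figure D1:**
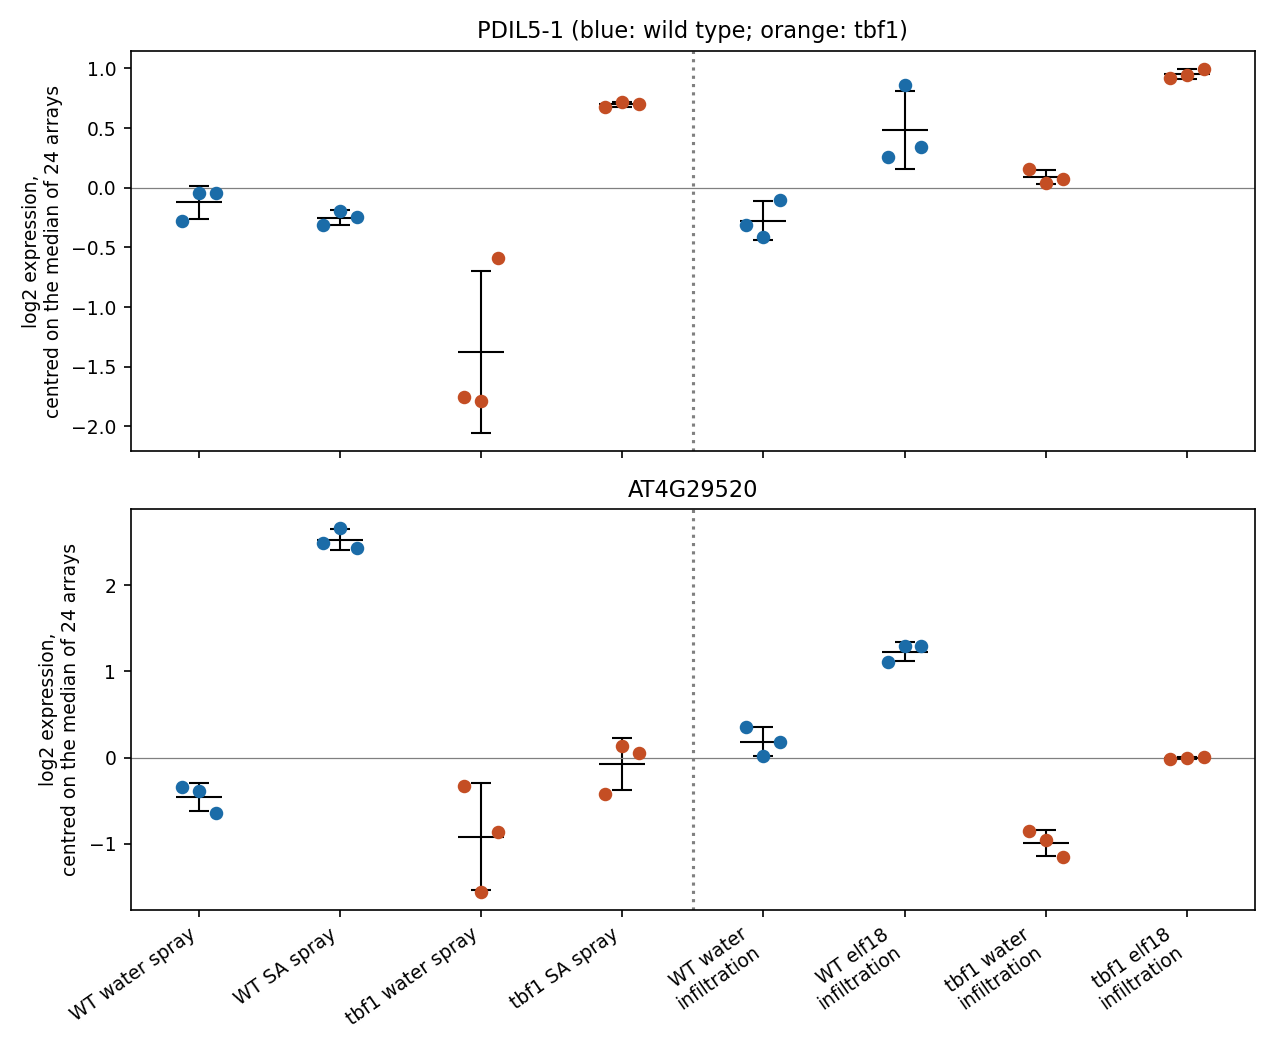
Centred log2 expression (y axis) of PDIL5-1 (upper panel) and AT4G29520 (lower panel) in each of the 24 arrays, by group (x axis), with blue points for wild type, orange points for tbf1 and black bars for the mean ± SD of 3 arrays. PDIL5-1 is lowest after water spray in tbf1 (-1.38 ± 0.68), and AT4G29520 is highest after SA in wild type (2.53 ± 0.12).

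AT4G29520 was at -0.34, -0.39 and -0.64 after water spray in wild type, and its SA arrays stood at 2.49, 2.67 and 2.43. The latter were the highest of all 24 arrays. In tbf1 the values were -0.33, -1.56 and -0.87 after water spray and -0.42, 0.14 and 0.05 after SA. These mutant groups overlapped, since replicate 1 after water spray lay above replicate 1 after SA.

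After water infiltration AT4G29520 was at 0.35, 0.01 and 0.19 in wild type and at -0.85, -0.96 and -1.16 in tbf1. After elf18 it was at 1.11, 1.29 and 1.29 in wild type and at -0.02, -0.01 and 0.01 in tbf1. All mutant arrays lay below all wild type arrays of the same treatment. The elf18 arrays of tbf1 lay just under the water arrays of wild type.

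From low to high, the group means of PDIL5-1 were -1.38 ± 0.68 in tbf1 water spray, -0.27 ± 0.16 in wild type water infiltration, -0.25 ± 0.06 in wild type SA, -0.12 ± 0.14 in wild type water spray, 0.09 ± 0.06 in tbf1 water infiltration, 0.49 ± 0.33 in wild type elf18, 0.70 ± 0.02 in tbf1 SA and 0.95 ± 0.04 in tbf1 elf18 (SD, n = 3 each). The span was 2.33. Neighbours in this order overlapped from wild type water infiltration up to wild type water spray, and between wild type elf18 and tbf1 SA. The other neighbours did not overlap.

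For AT4G29520 the order was -0.99 ± 0.16 in tbf1 water infiltration, -0.92 ± 0.62 in tbf1 water spray, -0.46 ± 0.16 in wild type water spray, -0.08 ± 0.30 in tbf1 SA, -0.01 ± 0.01 in tbf1 elf18, 0.18 ± 0.17 in wild type water infiltration, 1.23 ± 0.11 in wild type elf18 and 2.53 ± 0.12 in wild type SA (SD, n = 3 each). The span was 3.52. Each neighbouring pair up to tbf1 elf18 overlapped. Wild type water infiltration lay just above tbf1 elf18 but overlapped tbf1 SA, while wild type elf18 and wild type SA stood apart from each other and from the rest. Over the 8 group means the genes correlated at a Pearson r of 0.18, a description over groups that share the same arrays for both genes.

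The spray arrays, on which the genes were chosen, held SA responses that differed between genotypes in opposite directions. In wild type the SA arrays of PDIL5-1 differed from water by -0.13 ± 0.20 (SE, 3 arrays against 3), with a 95% interval of -0.54 to 0.29. In tbf1 the same difference was 2.08 ± 0.20, or 4.22-fold, with no overlap. Groups without overlap were found for 46.8% of all probe sets in wild type and 39.0% in tbf1. For AT4G29520 it was 2.99 ± 0.20 in wild type, or 7.93-fold, and 0.84 ± 0.20 in tbf1, or 1.79-fold. Without replicate 2 of tbf1 water spray the last value was 0.52. The wild type value of AT4G29520 ranked 47th from the top among 22746 probe sets, and the tbf1 value of PDIL5-1 ranked 124th.

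The SA response of tbf1 minus that of wild type was 2.20 ± 0.29 for PDIL5-1 (SE, 95% interval 1.61 to 2.79), rank 116 from the top, and -2.15 ± 0.28 for AT4G29520 (95% interval -2.72 to -1.58), rank 23 from the bottom. Of all probe sets, 29.3% were called for this difference. The genes came to these values from different groups. PDIL5-1 was lower in tbf1 than in wild type after water spray (-1.26 ± 0.20) and higher after SA (0.95 ± 0.20). For AT4G29520 the gap between genotypes was -0.46 ± 0.20 with water and -2.61 ± 0.20 with SA, 6.09-fold lower in tbf1. The median over all probe sets was 0.18 and 0.14 in these 2 comparisons.

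The water spray gap of AT4G29520 was the least settled of these values. It was -0.14 without replicate 2 and -0.75 without replicate 1 of tbf1 water spray, and 0.01 after quantile normalization. All arrays entered the fit with a common spread per probe set, although tbf1 water spray was the widest group, with a mean SD over probe sets of 0.242 against 0.114 in the tightest group.

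**Figure D2:**
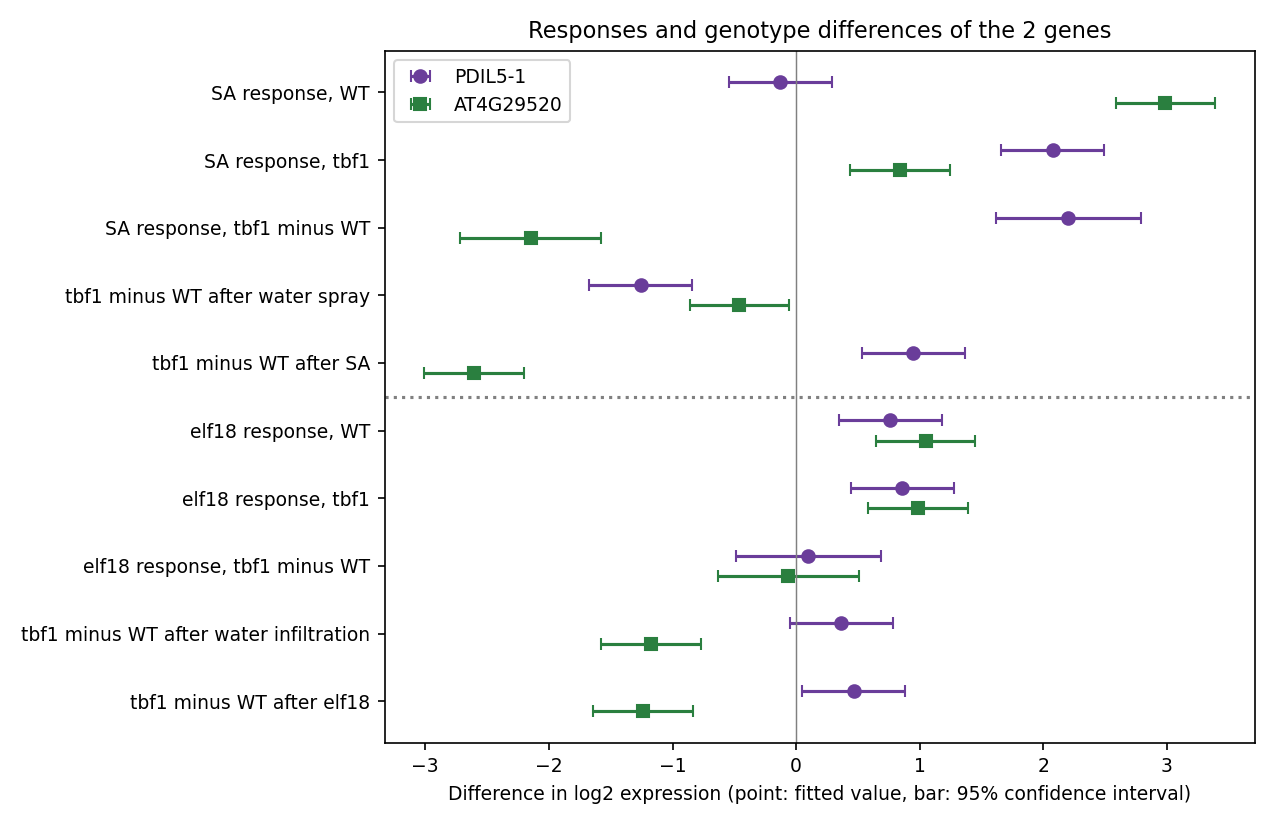
Fitted differences in log2 expression (x axis) for PDIL5-1 (purple circles) and AT4G29520 (green squares) in the 10 comparisons (y axis), with bars for 95% confidence intervals. Above the dotted line are the spray comparisons, where the SA difference between genotypes is 2.20 and -2.15, and below it the infiltration comparisons, where the elf18 difference is 0.10 and -0.06.

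With elf18, which raises defence genes through EFR, both genes rose in wild type. PDIL5-1 rose by 0.76 ± 0.20 (SE, 1.69-fold, adjusted p = 0.0026, limma) and AT4G29520 by 1.05 ± 0.20 (2.07-fold, adjusted p = 7.07e-05). Of all probe sets, 58.1% were called for elf18 in wild type and 31.2% as higher. Both genes were called as higher, and 2 genes are too few to read a share from. In tbf1 PDIL5-1 rose by 0.86 ± 0.20 (1.82-fold, adjusted p = 0.00116) and AT4G29520 by 0.98 ± 0.20 (1.98-fold, adjusted p = 0.000203), where 41.7% of all probe sets were called and 18.0% as higher. All 3 elf18 arrays lay above all 3 water arrays for each gene in each genotype, as was so in either direction for 61.3% of probe sets in wild type and 60.0% in tbf1.

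The elf18 response of tbf1 minus that of wild type was 0.10 ± 0.29 for PDIL5-1 (SE, adjusted p = 0.871, limma), with a 95% interval of -0.49 to 0.69. It was -0.06 ± 0.28 for AT4G29520 (adjusted p = 0.923), with an interval of -0.63 to 0.51. Neither was called in limma, and 0 of 2 had an unadjusted p below 0.05. Under the 6 alternative settings other than leaving out arrays, the value of AT4G29520 ran from -0.18 to 0.51. It was called in none of them (adjusted p from 0.145 to 0.957, limma). That of PDIL5-1 ran from 0.10 to 0.17, also without a call. Of all probe sets 15.5% were called. SA and elf18 also differed in time, dose and mode of application, and the responses to them were not tested against each other. Among the 195 probe sets whose SA difference was at least 2 the elf18 difference was called in 35.4%, and among the 33 at -2 or below in 30.3%.

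A measure of RNA quality moved with elf18. This index, the 5' minus 3' signal averaged over 6 pairs of control probe sets (actin, GAPDH, ubiquitin), was lower with elf18 than with water, the difference being -1.29 in wild type and -1.19 in tbf1. RCA, the mesophyll marker that activates Rubisco, also fell, by 1.20 in wild type and 0.62 in tbf1, and its response differed between genotypes (0.58, adjusted p = 0.00427, limma). FMA, the guard cell marker, was at -0.16 in wild type (adjusted p = 0.357) and fell by 0.48 in tbf1 (adjusted p = 0.0124). The part of these in the elf18 values was not tested beyond the following fit. With the index as a covariate the elf18 values of PDIL5-1 were -0.10 ± 0.57 in wild type (adjusted p = 0.931) and 0.07 ± 0.53 in tbf1 (adjusted p = 0.955), so that both calls were lost. Those of AT4G29520 were 2.47 ± 0.49 and 2.29 ± 0.46 and remained called (adjusted p = 0.00141 and 0.00219). The elf18 difference between genotypes was called for neither gene in that fit either. Group means of the index ran from -1.67 to 0.84, with SDs within groups of 0.004 to 0.29. The index thus varied mainly between groups, and this fit cannot well part it from treatment. Calls over all probe sets also fell with it, from 13221 to 3774 in wild type and from 9491 to 2317 in tbf1.

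The genotypes were then compared within each infiltration treatment. The differences come from arrays that had no part in the choice of genes. Their SEs and p-values do not, as the spread was estimated over all 8 groups, spray arrays included. The SD of PDIL5-1 was 0.68 in tbf1 water spray and 0.04 to 0.33 in the infiltration groups. For AT4G29520 it was 0.62 and 0.01 to 0.17. AT4G29520 was lower in tbf1 after water infiltration (-1.17 ± 0.20, SE, 2.26-fold, adjusted p = 7.12e-05, limma) and after elf18 (-1.24 ± 0.20, 2.36-fold, adjusted p = 2.16e-05). These values ranked 251st and 217th from the bottom of all probe sets. After water infiltration 20.6% of probe sets were called and 8.55% as lower, and after elf18 36.9% and 16.1%. The direction is that of the spray comparison after SA.

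PDIL5-1 was at 0.37 ± 0.20 in tbf1 relative to wild type after water infiltration (SE, 95% interval -0.05 to 0.78, adjusted p = 0.244, limma) and at 0.47 ± 0.20 after elf18 (95% interval 0.05 to 0.88, adjusted p = 0.0737). Neither value was called, although the arrays of the genotypes did not overlap, which held for 41.7% and 44.7% of all probe sets. Both values were called after quantile normalization (0.58 and 0.68, adjusted p = 0.0284 and 0.0102) and with array weights (adjusted p = 0.0227 and 0.0472). After water infiltration this was also so with only those 2 groups fitted (adjusted p = 0.0112), and after elf18 without replicate 2 of wild type elf18 (0.65, adjusted p = 0.0198). In every one of these fits PDIL5-1 was higher in tbf1, opposite to AT4G29520.

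**Figure D3:**
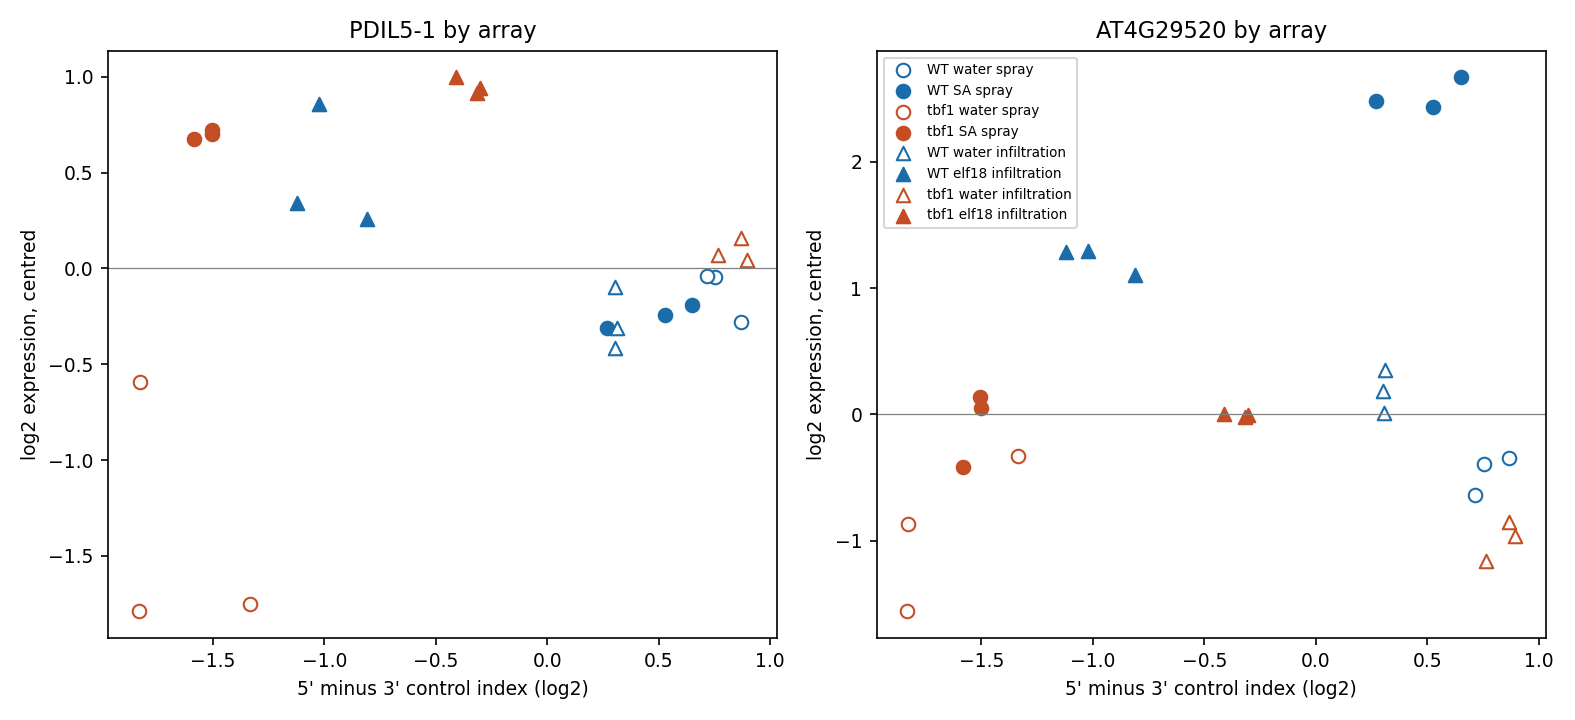
Centred log2 expression (y axis) of PDIL5-1 (left) and AT4G29520 (right) against the 5' minus 3' control index (x axis, log2) in the 24 arrays, with circles for spray, triangles for infiltration, blue for wild type, orange for tbf1, and filled symbols for SA or elf18. The tbf1 spray arrays have the lowest indices, with means of -1.67 after water and -1.53 after SA, and PDIL5-1 differs between these groups by 2.08.

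The index also separated the genotypes. Its difference, tbf1 minus wild type, was -2.44 with water spray, -2.01 with SA, 0.54 with water infiltration and 0.64 with elf18. SA minus water spray gave -0.30 in wild type and 0.14 in tbf1. RCA was called as lower in tbf1 after water spray (-0.97) and SA (-1.24) and as higher after elf18 (0.64), and stood at 0.06 after water infiltration (adjusted p = 0.799). FMA was called as lower in tbf1 after SA (-0.57) and as higher after water infiltration (0.49), and stood at 0.05 after water spray and 0.17 after elf18 (adjusted p = 0.757 and 0.406). The SA response of FMA was lower in tbf1 (-0.62, adjusted p = 0.0286), and that of RCA was at -0.27 (adjusted p = 0.135). The SA responses of both genes kept their direction with the index as a covariate, at -0.32 and 2.17 for PDIL5-1 and at 3.31 and 0.69 for AT4G29520. The genotype differences within the spray groups did not all do so. After SA the value of PDIL5-1 turned from 0.95 to -0.40 ± 0.87 (SE), and that of AT4G29520 went from -2.61 to -0.39 ± 0.74. After water spray AT4G29520 turned from -0.46 to 2.23 ± 0.89 and PDIL5-1 went from -1.26 to -2.89 ± 1.04. After infiltration AT4G29520 remained lower in tbf1 and called, at -1.76 ± 0.26 with water and -1.94 ± 0.28 with elf18. As the index varied mainly between groups, this fit cannot well part it from genotype. What part RNA quality or cell types had in these values was not tested further. Over the 8 group means the index correlated with PDIL5-1 at a Pearson r of 0.05 and with AT4G29520 at 0.11.

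The genes whose 8 group means were most like those of each gene were looked for among the other 13512 probe sets with 1 gene name. For PDIL5-1 they were AT1G09330 (ECHIDNA, a protein of the trans-Golgi network) with a Pearson r of 0.99, AT1G03150 with 0.98, AT1G15370 with 0.97, AT5G42960 with 0.96 and KIWI (AT5G09250), a transcriptional coactivator, with 0.96. Over the 24 arrays the r values were between 0.70 for KIWI and 0.93 for AT1G15370. AT1G09330 had its lowest mean in tbf1 water spray (-1.39) and its highest in tbf1 elf18 (0.87), as PDIL5-1 did, and its span of 2.26 was close to the 2.33 of PDIL5-1. KIWI had the same lowest and highest groups over a span of 0.96.

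For AT4G29520 the most alike were AT3G49725 with a Pearson r of 0.94, AT1G69730 and AT3G28540 with 0.93 each, AT5G53330 with 0.92 and AT4G02550 with 0.92. All 5 had their highest mean in wild type SA, from 0.62 in AT4G02550 to 2.11 in AT3G28540, against 2.53 in AT4G29520. Of the 5, AT3G28540 had the span nearest to that of AT4G29520, with 2.98 against 3.52. In tbf1 AT3G28540 was at -0.28 after water infiltration and -0.34 after elf18, while AT4G29520 stood at -0.99 and -0.01. These correlations share libraries and scaling and were picked as the highest of many.

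**Figure D4:**
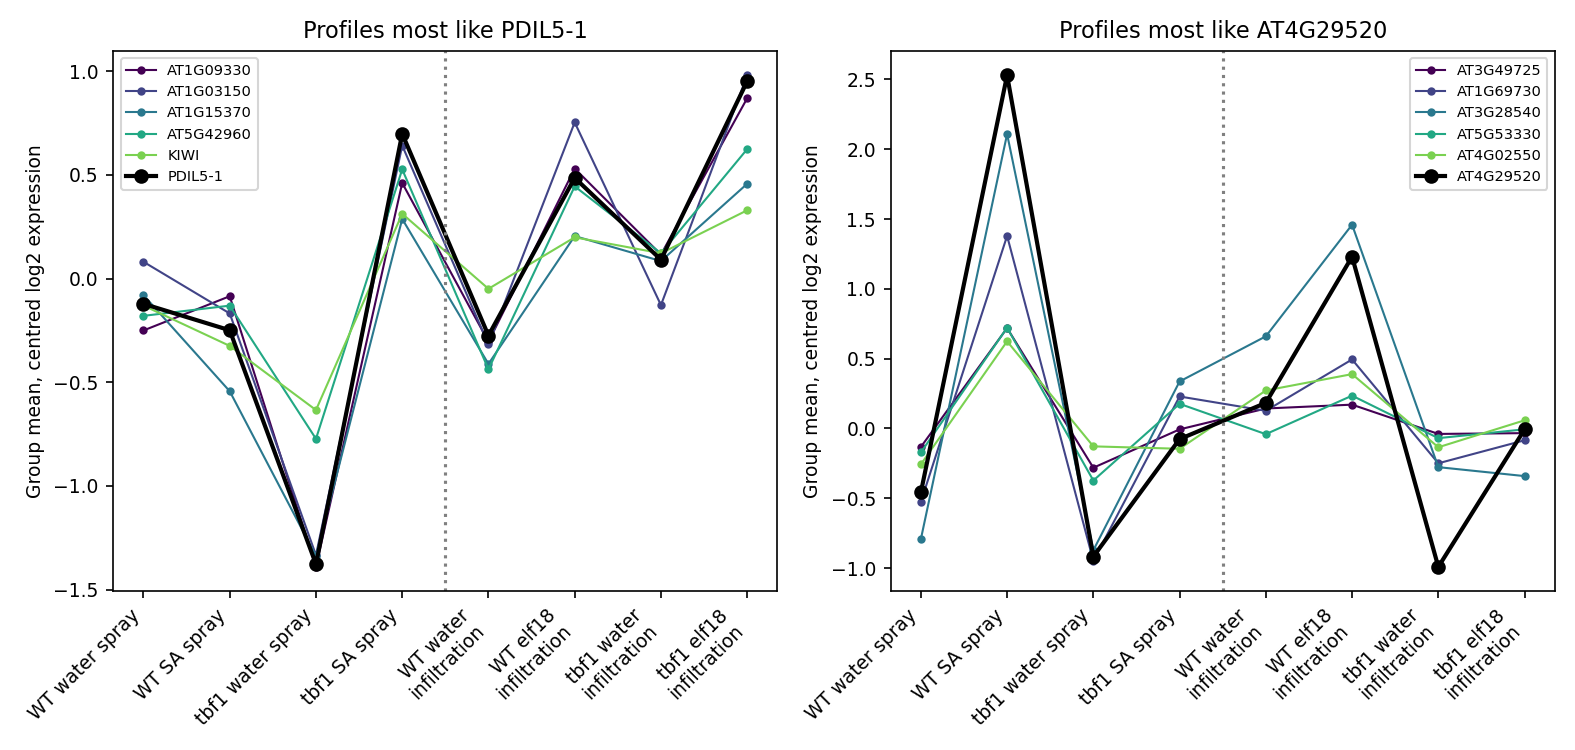
Group means of centred log2 expression (y axis) over the 8 groups (x axis) for PDIL5-1 (left, black) and AT4G29520 (right, black) and the 5 genes most like each (coloured lines). The dotted line parts spray from infiltration groups. The genes like PDIL5-1 dip in tbf1 water spray, and those like AT4G29520 peak in wild type SA.

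Other ER genes were read from 4 lists with 55 entries, of which 18 besides PDIL5-1 had a probe set annotated to that gene alone. In the list of the disulfide isomerase family and its ER oxidases PDIL5-1 was the only member of 15 with such a probe set. Its relatives were therefore not set beside it, which does not show that the arrays lack them. With SA in wild type 14 of the 18 rose and 0 fell, against 13.1% and 15.2% of all genes (limma on 13355 genes). At an unadjusted p below 0.05 the counts were 15 and 0, and the median was 1.04 against -0.02 for all genes. In tbf1 12 rose and 2 fell, against 17.7% and 19.4%, with medians of 0.81 and -0.09. In wild type the largest rise among them was the 2.44 ± 0.21 of ATERDJ3B, a DnaJ co-chaperone of the ER (SE, adjusted p = 9.33e-10, limma), below the 2.99 of AT4G29520. The -0.13 of PDIL5-1 lay within the range of the 4 that were not called, from -0.20 in DER2.2 to 0.26 in AT3G48570.

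The SA response of 9 of the 18 was called as lower in tbf1 than in wild type and that of 3 as higher, against 11.5% and 15.2% of all genes, with medians of -0.54 and -0.09. All 5 chaperone genes had negative values and 4 were called, among them ATERDJ3B at -1.54, CRT1b, a calreticulin, at -1.37, and AT4G16660, listed as an ER member of the HSP70 family, at -1.29. AT4G29520, at -2.15, was more negative than any of these. The 3 with more positive values were DER2.2 (1.16 ± 0.21, adjusted p = 0.000106), DER2.1 (0.85 ± 0.25, adjusted p = 0.0111) and AT3G48570, listed as a Sec61 gamma subunit of the translocon (0.66). DER2.1 and DER2.2 are derlins, which act in the removal of misfolded proteins from the ER. PDIL5-1, at 2.20, was more positive than each. PDIL5-1 and AT4G29520 were chosen on this value, so their place beyond the other ER genes is no finding.

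The call of DER2.1 was lost after quantile normalization (0.41, adjusted p = 0.278) and with the index as a covariate (0.29, adjusted p = 0.378). The derlins stood lower in tbf1 after water spray, DER2.1 at -1.35 and DER2.2 at -1.09. With the index as a covariate neither was called there, with DER2.1 turned to 1.86 (adjusted p = 0.156) and DER2.2 at -0.36 (adjusted p = 0.862), while PDIL5-1 was at -2.89. AT3G48570 stood higher after water spray, at 1.26 (0.72 with the index, adjusted p = 0.495), and its probe sets gave SA differences of 0.45 (not called) and 0.86. Of the unfolded protein response regulators, BZIP17 had a lower SA response in tbf1 (-0.83), and so had BZIP28 (-0.58), while BZIP60 was at -0.15 (adjusted p = 0.441), and at -0.47 and called after quantile normalization (adjusted p = 0.013). The call of BZIP28 was lost with array weights (adjusted p = 0.106) and without wild type water spray replicate 3 (0.0722), tbf1 water spray replicate 1 (0.0601) or tbf1 SA replicate 3 (0.071). These 3 are membrane-tethered transcription factors.

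With elf18 the ER genes were divided. In wild type 6 rose and 7 fell, against 33.7% and 21.9% of all genes, and in tbf1 8 rose and 5 fell, against 18.4% and 19.0%. The medians were 0.0025 and 0.32, against 0.18 and 0.10 for all genes. In tbf1 only 5 rose without replicate 2 of the elf18 group, and only 2 fell without that array, without replicate 3 of the elf18 group or without replicate 1 of the water group. With the index as a covariate 7 rose and none fell in either genotype. Over all probe sets, calls in either direction then numbered 3774 in wild type and 2317 in tbf1, against 13221 and 9491 without it. Without the index AT4G29520 and PDIL5-1 rose in both genotypes. So did AT3G60540, listed as a Sec61 beta subunit (2.27 and 2.12), AT5G60460, of the same subunit (1.84 and 1.90), and BZIP60 (0.85 and 1.04). AT3G48570 (2.14 and 1.64) and AT1G78720, from the translocation list (0.76 and 0.60), rose in both as well. The tbf1 call of AT1G78720 was lost in 3 of 6 fits that left out a single array. CRT1b fell in wild type (-0.88) and was at 0.19 in tbf1.

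In the elf18 difference between genotypes 6 of the 18 were called as more positive in tbf1 and 2 as more negative, against 7.25% and 5.11% of all genes. The 6 fell to 3 without replicate 1 or replicate 3 of wild type water infiltration, and the 2 to 1 without replicate 3 of tbf1 water infiltration. DER2.2, at 1.20 ± 0.21 (adjusted p = 0.00028), and CRT1b, at 1.07 ± 0.27 (adjusted p = 0.00794), stayed called without any array. DER2.1 was at 0.89, ATERDJ3B at 1.01, AT5G07340, listed as a calnexin, at 0.88, and AT1G29310, of the translocon, at 0.60, and each of these lost its call without at least 1 of 12 arrays. DER2.1 did so without replicate 3 of wild type water infiltration (adjusted p = 0.0586), and after quantile normalization (0.59, adjusted p = 0.15). The other 3 each did so without replicate 1 of wild type water infiltration and without 4 or 5 further arrays, with adjusted p up to 0.0598 for ATERDJ3B, 0.0687 for AT5G07340 and 0.0909 for AT1G29310. The more negative genes were ATERDJ2A (-0.70) and AT3G48570 (-0.50), whose call was lost after quantile normalization (-0.05, adjusted p = 0.879). DER2.2 was thus called as more positive in tbf1 in both responses, also after quantile normalization and with the index as a covariate, which did not hold for DER2.1.

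**Figure D5:**
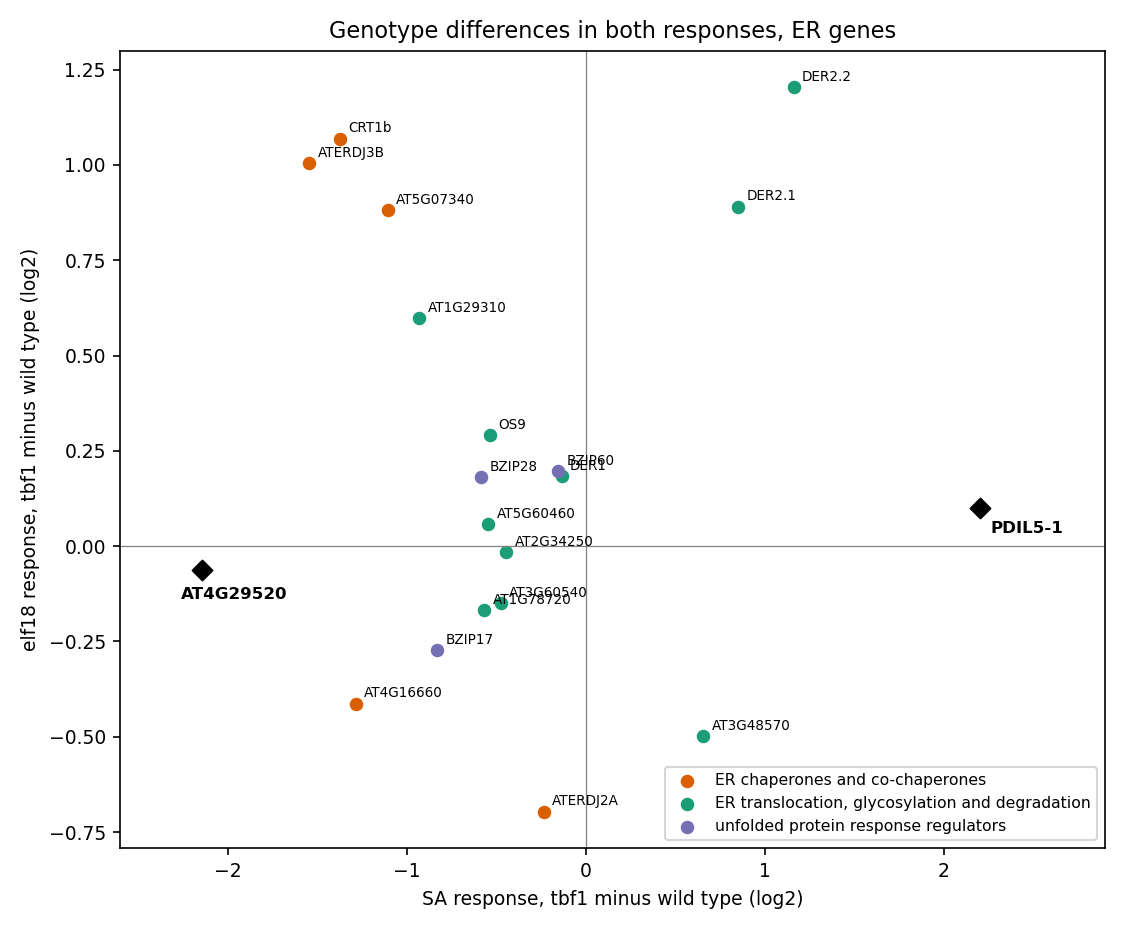
Genotype difference (tbf1 minus wild type, log2) in the SA response (x axis) and in the elf18 response (y axis) for 18 ER genes in 3 lists (coloured points) and for PDIL5-1 and AT4G29520 (black diamonds). The diamonds lie at the ends of the x axis, the value on which the 2 genes were chosen, at 2.20 and -2.15. On the y axis they lie near 0.

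After water infiltration 7 of the 18 ER genes were lower in tbf1 and 1 was higher, against 7.62% and 9.34% of all genes. The lower ones included BZIP60 (-1.002), CRT1b (-0.98), ATERDJ3B (-0.94) and AT3G60540 (-0.87), and the higher 1 was AT2G34250, of the translocon (0.64). AT4G29520, at -1.17, stood below each of them. After elf18, 6 were lower and 3 higher, against 16.7% and 16.9%. CRT1b and ATERDJ3B were then at 0.09 and 0.06 (adjusted p = 0.735 and 0.844), while AT4G16660 was at -1.05, AT3G60540 at -1.02 and BZIP60 at -0.81, all called, beside the -1.24 of AT4G29520. The 3 higher genes were DER2.2 (1.50), DER2.1 (1.06) and AT2G34250 (0.63). With the index as a covariate 2715 probe sets were called after water infiltration and 4197 after elf18, against 4679 and 8383 without it. Of the 18 ER genes, 0 were higher in that fit after water infiltration and 1 after elf18, with 7 and 6 lower. DER2.1 (0.21, adjusted p = 0.548) and AT2G34250 (0.35, adjusted p = 0.254) then lost their calls after elf18, ATERDJ3B was at -0.92 and called as lower (adjusted p = 0.0192), and CRT1b was at -0.68 (adjusted p = 0.0749).

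Over the 8 group means AT4G29520 was most alike, among the 18 ER genes, to AT4G16660 and ATERDJ3B, with a Pearson r of 0.86 and 0.85, followed by AT1G29310 with 0.83. For PDIL5-1 the highest values were 0.60 for both AT3G48570 and DER2.1, well under those of the genes named above. CRT1b and AT5G07340 had an r of -0.09 and -0.17 with PDIL5-1. These are descriptions over 8 points that share arrays.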

How the data were processed

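Leaf RNA of 24 samples in 8 groups of 3 was measured on single-channel arrays. The deposited log2 values were made by the authors with RMA, per the submitters' processing notes, with no version given. The log base is not stated and was taken as 2, on which every fold rests. Each of 22810 probe sets had been centred on its median (largest absolute median 5e-07). After 64 control probe sets were left out, 22746 entered a limma fit of the 8 group means (limma 3.58.1 under R 4.3.3, 16 residual degrees of freedom). Benjamini-Hochberg adjustment ran over all of them, and an adjusted p below 0.05 was called. For the ER lists, probe sets with 1 gene (13513, of which 13436 were matched to RefSeq TAIR10.1 by Entrez identifier) were averaged into 13355 genes; 503 probe sets had several genes and 8730 none listed. The fit was tested on simulated data.

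The genes and lists were chosen with earlier results of these data known. The naming rule took both genes in every comparison, the 5 probe sets most like each by Pearson correlation of group means, and for each list and comparison up to 3 called and 2 uncalled genes by size; further genes that stand behind a count of 5 or fewer, or beside PDIL5-1 or AT4G29520, were named after their values were seen. Alternatives were quantile normalization, median-centred arrays, only the groups compared, the 5' minus 3' index as a covariate, array weights, the replicate number as a block and leaving out each array. Deviations of same-numbered arrays did not correlate throughout, so the numbers were not taken as pairs. As no genome build is named, genes carry no positions here.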

Additional observations from a re-analysis of the deposited data

Results flagged for a closer look

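PDIL5-1 had an SA difference of 2.20 between genotypes, with every SA array of tbf1 above the mean of its water group and every SA array of wild type below it. This difference was not tested, because it chose the gene. Among the ER genes, the SA response was called as lower in tbf1 by an interaction term for ATERDJ3B (-1.54), CRT1b (-1.37), AT4G16660 (-1.29), AT5G07340 (-1.10), AT1G29310 (-0.93), BZIP17 (-0.83), BZIP28 (-0.58), AT5G60460 (-0.54) and AT3G60540 (-0.48), and as higher for DER2.2 (1.16), DER2.1 (0.85) and AT3G48570 (0.66). The elf18 response was called as higher in tbf1 for DER2.2 (1.20), CRT1b (1.07), ATERDJ3B (1.01), DER2.1 (0.89), AT5G07340 (0.88) and AT1G29310 (0.60), and as lower for ATERDJ2A (-0.70) and AT3G48570 (-0.50). Of the cell type markers, FMA had a lower SA response in tbf1 (-0.62) and RCA a higher elf18 response (0.58).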

How the results depend on the processing

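Of 120 values of PDIL5-1 and AT4G29520 under settings other than leaving out arrays, 101 were counted as unchanged. For infiltration comparisons this meant the same call, and the same direction where a call was made. The direction of an uncalled value was not counted. For spray comparisons it meant a shift smaller than the SD between replicates, without a reversal of direction. With the replicate block all 20 were unchanged, for example with an elf18 difference between genotypes of 0.10 for PDIL5-1. The correlation of same-numbered arrays was between -0.11 and 0.28 and over 0.1 in 6 of 24 pairs. For PDIL5-1, quantile normalization gave 1.59 for SA in tbf1, 1.75 for the SA difference between genotypes, 0.58 and 0.68 for the genotype difference with water infiltration and elf18, and for AT4G29520 -2.62 and, after water spray, 0.0148. Median-centred arrays gave 0.87 for PDIL5-1 after SA between genotypes. With the index as a covariate PDIL5-1 was at -0.32 for SA in wild type, -2.89 and -0.40 between genotypes after water spray and SA, and -0.10 and 0.0692 for elf18 in wild type and tbf1. AT4G29520 was then at 3.31 for SA in wild type, -2.62 for the SA difference, and 2.23 and -0.39 between genotypes after water spray and SA. Array weights gave 0.35 and 0.45 for PDIL5-1 between genotypes after water infiltration and elf18, and the fit of only those groups 0.37 after water infiltration. The cause was not tested. Leaving out arrays gave 2.00 to 2.60 for the SA difference of PDIL5-1 and 0.35 to 0.65 for its genotype difference after elf18. It changed none of the calls of AT4G29520. For the ER genes, added after the data were seen, the index left 0 higher and 0 lower between genotypes after water spray (5 and 11 without it) and 2 and 0 after SA (5 and 12). Over all probe sets the calls also fell, from 15647 to 217 after water spray and from 13208 to 1367 after SA. The array number and the centring, which hides signal over background, limit all values.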
